A study of Glycine max with 3 samples.

Results

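Gene activity in the embryo proper was set against that in the suspensor of the globular-stage soybean (Glycine max) embryo, over all gene models that had 50 or more reads in at least 1 of the 2 libraries. This rule took 20507 of the 66210 gene models listed, or 31.0%. The embryo proper library was made from the embryo proper region of such embryos and the suspensor library from the suspensor region. Both came from cultivar Asgrow A3237, for which no treatment is named, and were cut by laser from 6 µm paraffin sections, in pods 0.5 to 1.2 cm long. A library of seed coat parenchyma from seeds at early maturation, 6.0 to 7.0 mm long and cut at 8 µm on another instrument, played no part in the choice of gene models and is used below only as a separate readout. Each region is represented by 1 library, so no value has a replicate and no test between regions was possible. Intervals of ratios and of shares of reads cover counting error only. Those of shares of gene models treat gene models as independent draws, which they are not. The number of embryos behind each library is not given in the sources used here.

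In flowering plants the first divisions of the zygote commonly set apart an embryo proper, which forms the seedling, and a suspensor, a short-lived stalk that anchors the embryo and passes nutrients to it. At the globular stage the embryo proper is a ball of dividing cells without cotyledons. In the scarlet runner bean, a relative of soybean with a very large suspensor, the suspensor is also known as a source of gibberellins, hormones that promote embryo growth.

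The files pair no identifier with a gene name, and a reference table of 59048 soybean genes matched 0 of the 66210 identifiers. No gene name or function is therefore given, and neither region could be checked against marker genes of its own or of neighbouring tissues, so their presence in a library was not tested. Identifiers are printed for 2 gene models on each side and 2 even ones, and other members are described by their values.

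The embryo proper library held 11603055 reads assigned to gene models, the suspensor library 8365831 and the seed coat parenchyma library 11894273. The members took nearly all reads of the embryo libraries, 98.6% for the embryo proper against 98.8% for the suspensor, and 83.1% of the seed coat parenchyma library. Levels are given as scaled CPM, reads per 1000000 after TMM scaling, which corrects for a few abundant genes taking up reads in 1 library. Because of the unequal totals and scaling factors, the minimum of 50 reads stood for 4.34 CPM in the embryo proper but 7.19 CPM in the suspensor. CPM is not corrected for transcript length, which the files do not give, so ranks by CPM below are ranks of reads.

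Many members differed between the regions by 4-fold or more, most of them with 50 reads in 1 of the 2 libraries only. The embryo proper exceeded the suspensor by 4-fold or more for 4654 members (22.7%), called embryo proper-high here, and the suspensor exceeded the embryo proper for 3447 (16.8%), called suspensor-high. Over all 33367 gene models with at least 1 read in either library, these shares were 20% and 16.2%, close to those of the members. Gene models with 3 or fewer reads in both libraries were given no ratio. They count in the 33367 but in no group by ratio, which lowers the background shares. The regions lay within 2-fold of each other for 7347 members (35.8%, against 31% of the 33367). In bulk tissue, fewer cells of a type and less RNA per cell cannot be told apart in any of these differences. Most were larger than counting error, since even the end of the counting interval nearest to equality passed 4-fold for 3563 of the 4654 embryo proper-high and 2746 of the 3447 suspensor-high members. Over the 33367 gene models, 13% and 11.3% passed that bound.

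The number on each side moved with the minimum and the scaling. Of the 20507 members, 11973 had 50 reads in both libraries, 5960 in the embryo proper alone and 2574 in the suspensor alone. Passing through 1 library alone favours a ratio towards that library, and 4020 of the 4654 embryo proper-high and 2207 of the 3447 suspensor-high members passed in that way. Of the 11973 with 50 reads in both, 15.7% were 4-fold or more apart, 634 embryo proper-high and 1240 suspensor-high. That share was 67.4% of the 5960 and 85.7% of the 2574. With the same minimum in CPM for both libraries (that of 50 suspensor reads), 3656 gene models were embryo proper-high and 3426 suspensor-high. The embryo proper side was also the larger at minimums of 20, 100 and 500 reads, which likewise had to be met in only 1 library. The suspensor side was the larger with 5 CPM added to both levels (1485 embryo proper-high, 1668 suspensor-high) and among the 13747 gene models with a mean level of 10 CPM or more (1964 and 2298, in the same order). On unscaled totals this minimum of the mean gave 2273 embryo proper-high and 1762 suspensor-high gene models. The median log2 ratio of embryo proper over suspensor was 0.19 over all members and -0.084 over those 13747. At the edge of the rule, 552 members had a highest count of 50 to 54 reads and a median log2 ratio of 0.43, and 620 gene models just below it, with 45 to 49 reads, had one of 0.44.

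Among members the log2 ratio spread widely around the centre, with quartiles at -1.27 and 1.77. The outer 1% lay below -7.26 and above 6.81. A ratio of 16-fold or more was found for 1929 members on the embryo proper side (9.41%, background 6.32%) and 1350 on the suspensor side (6.58%, background 5.66%). A count of 0 was set at 3 reads, which stand at 0.260 CPM in the embryo proper but 0.431 CPM in the suspensor. Other low counts were left as read, so a count of 1 can give a larger ratio than a count of 0. On the embryo proper side, 886 reads against 1 gave 534-fold, while 1199 reads against 0 gave 241-fold. The numbers at 16-fold or more depend on this setting. At 100-fold or more the suspensor side was the larger, with 257 members on the embryo proper side (1.253%, background 0.77%) and 334 on the suspensor side (1.63%, background 1%). The background at 100-fold holds these same 257 and 334 gene models, so its shares differ only through the larger number divided by. At 16-fold it holds 2109 and 1890 gene models, most of them members. These gaps from the background follow from the minimum of reads and say nothing about the members.

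**Figure D1:**
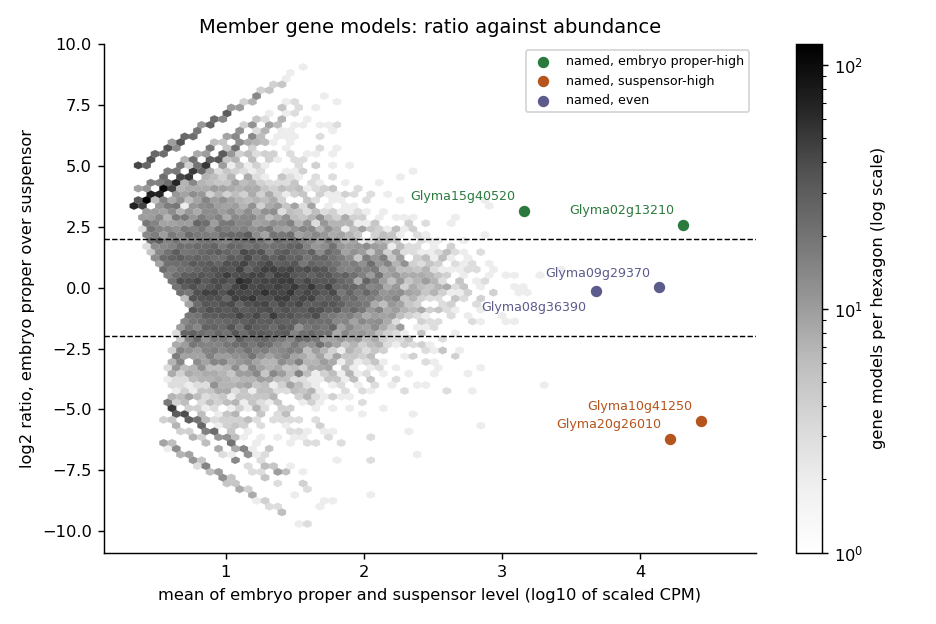
The horizontal axis gives the mean of the embryo proper and suspensor levels (log10 of scaled CPM) and the vertical axis the log2 ratio of embryo proper over suspensor, with hexagons shaded by the number of member gene models and dashed lines at 4-fold. The named suspensor-high gene models lie at the right end, at log2 ratios of -5.48 and -6.23, and the named embryo proper-high ones at 2.58 and 3.17.

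Suspensor-high genes made up a larger part of the reads of their region than embryo proper-high genes did. The 4654 embryo proper-high members took 21.97% (95% Wilson interval 21.95 to 22.00%) of the reads in the embryo proper and 2.33% in the suspensor. The 3447 suspensor-high members took 3.37% in the embryo proper, against 34.98% (34.95 to 35.02%) in the suspensor. The suspensor-high group was fewer in number and more abundant in its own region, with a median of 28.3 CPM in the suspensor (quartiles 14.5 and 64.5 CPM). The embryo proper-high group had a median of 14.8 CPM in the embryo proper (quartiles 7.80 and 34.1 CPM), where its lower minimum in CPM also let in lower genes. At 1000 CPM or more in their own region stood 15 embryo proper-high and 44 suspensor-high members.

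**Figure D2:**
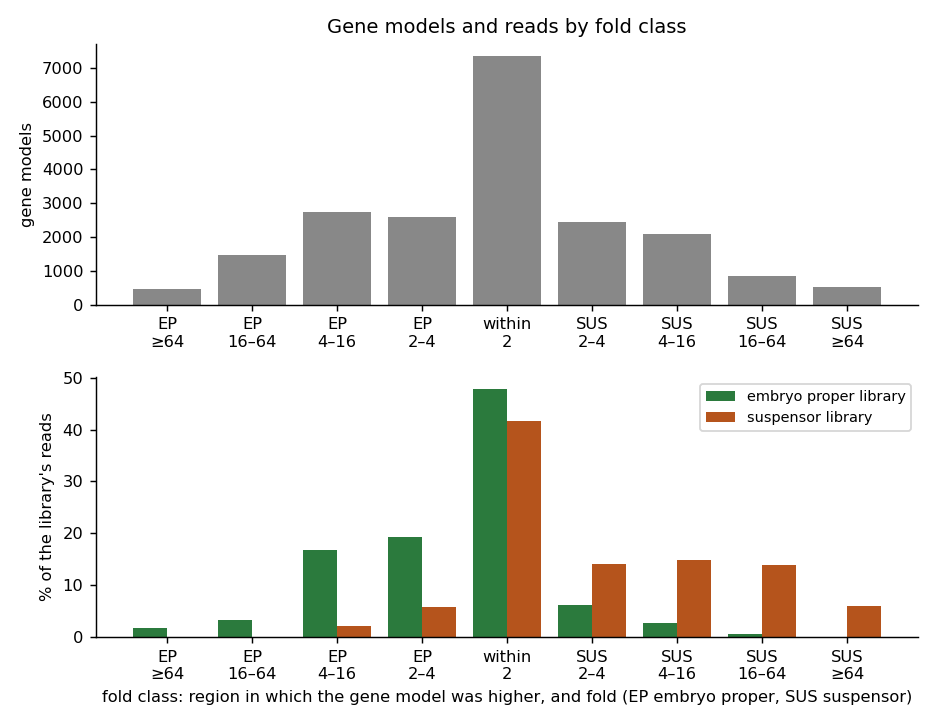
The upper bars give the number of member gene models in each fold class, from an excess of at least 64-fold in the embryo proper (EP) to one of at least 64-fold in the suspensor (SUS), and the lower bars the percentage of each library's reads in that class. Members within 2-fold took 47.8% of the embryo proper and 41.6% of the suspensor library, and the 16 to 64-fold suspensor class took 0.599% of embryo proper and 14.0% of suspensor reads.

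Beyond its first member, the suspensor-high group was also the more concentrated in reads. The most read member took 15.8% of the embryo proper-high group's reads in the embryo proper and 12.9% of the suspensor-high group's reads in the suspensor. On the embryo proper side, 194 members made up 50% of the group's embryo proper reads and the top 10 made up 23.1%. On the suspensor side, 58 members made up 50% of the group's suspensor reads and the top 10 made up 34.2%. Without its 2 members with most reads, the embryo proper-high group still took 18.2% of its library and the suspensor-high group 27.8%. Taken over all gene models, 44.2% of one library's reads would have to be moved to other gene models to give the read shares of the other. Of that difference, 50% lay in 639 gene models for the embryo proper excess but in 156 for the suspensor excess.

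Among gene models with a mean level of 10 CPM or more, the balance between the regions changed with abundance. These are 13747 of the 20507 members, with 1964 of the 4654 embryo proper-high and 2298 of the 3447 suspensor-high ones. Members below that mean are in none of the ranges. At a mean of 10 to 30 CPM, 17.1% of 7154 gene models were embryo proper-high and 17.8% suspensor-high. At 300 CPM or more, 30 of 430 gene models (6.98%) were embryo proper-high and 96 (22.3%) were suspensor-high. Of the 71 at 1000 CPM or more, 4 were embryo proper-high and 21 suspensor-high. The excess on the suspensor side at 300 CPM or more was found with the 3 other scalings run on these ranges, with 29 against 104 gene models by DESeq2 size factors, 35 against 93 by upper-quartile factors and 42 against 76 on unscaled totals, in the order embryo proper-high and suspensor-high. Below 300 CPM the larger side turned on unscaled totals, at 1392 against 1029 gene models for 10 to 30 CPM, 689 against 511 for 30 to 100 CPM and 150 against 146 for 100 to 300 CPM, in the same order. With upper-quartile factors it turned at 10 to 30 CPM, at 1300 against 1208.

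**Figure D3:**
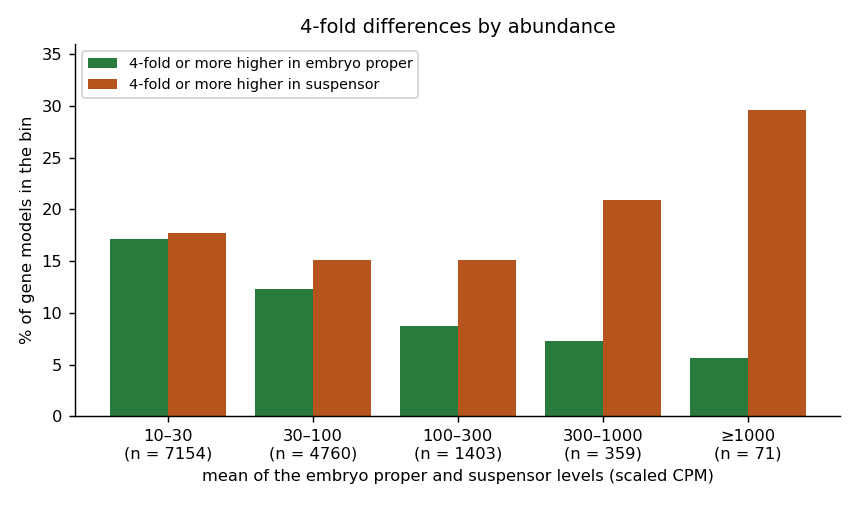
Bars give the percentage of embryo proper-high (left bar) and suspensor-high (right bar) gene models, both by 4-fold or more, for each range of the mean level in scaled CPM, with the number of gene models under each range. The embryo proper bars go down to 5.63% at 1000 CPM or more, where the suspensor bar stands at 29.6%. Members with a mean below 10 CPM are not shown.

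Differences at low abundance rest on fewer reads, and yet the spread of ratios did not narrow with depth as counting intervals did. The interquartile range of the log2 ratio was 2.78 at 10 to 30 CPM, 2.16 at 100 to 300 CPM and 3.29 at 1000 CPM or more. Over the same ranges the median width of the counting interval was 0.80, 0.26 and 0.08 on the log2 scale. How much of the remaining spread came from amplification or from the sections sampled cannot be told with 1 library per region and was not tested.

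The most read gene models were partly shared. Of the 10 with most reads in each library 5 were common, of the top 100 42 were common, and of the top 1000 498. The 10 most read of the embryo proper took 13.1% of that library and 9.21% of the suspensor library, and the lowest of them stood at rank 94 in the suspensor. The 10 most read of the suspensor took 10.6% of the embryo proper library and 18.5% of their own, and the lowest of them stood at rank 238 in the embryo proper. Among the top 100 of the embryo proper, 21 were 4-fold or more higher there and 50 within 2-fold of the suspensor. Among the top 100 of the suspensor, 46 were 4-fold or more higher there and 35 within 2-fold. Over all members the Spearman correlation of the levels was 0.43 and the Pearson correlation of log2(CPM + 1) was 0.44. These describe 20507 gene models of 1 pair of libraries, which are not independent points, and they depend on the minimum.

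Among embryo proper-high members, all 4-fold or more apart, the largest difference in level was that of Glyma02g13210, on chromosome 2. It had 402539 reads in the embryo proper, where it was the most read of all, and 40732 reads in the suspensor, where it ranked 9. Its level was 34902 CPM in the embryo proper against 5854 CPM in the suspensor, a ratio of 5.96 (95% exact Clopper-Pearson counting interval 5.90 to 6.02). The high level in the embryo proper thus went with a high level in the suspensor, while the seed coat parenchyma had 60 reads (4.17 CPM). The second among them was Glyma15g40520, on chromosome 15, at 2612 CPM in the embryo proper (30125 reads) against 291 CPM in the suspensor (2025 reads). Its ratio was 8.97 (8.58 to 9.39). It was read in the seed coat parenchyma too, at 175 CPM. The next 8 embryo proper-high members by difference in level ranged from 1343 to 2531 CPM in the embryo proper, against 110 to 519 CPM in the suspensor, with ratios of 4.87 to 12.9. All 8 were at 1 CPM or more in the seed coat parenchyma.

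On the suspensor side the named gene models had larger ratios. Glyma10g41250, on chromosome 10, had 14046 reads in the embryo proper (1218 CPM) and 377976 reads in the suspensor (54324 CPM), where it alone took 4.52% of all reads. Its suspensor to embryo proper ratio was 44.6 (43.9 to 45.4). Glyma20g26010, on chromosome 20, had 5028 reads in the embryo proper (436 CPM) and 227148 reads in the suspensor (32646 CPM), or 2.72% of all suspensor reads, a ratio of 74.9 (72.8 to 77.0). By reads they ranked 48 and 238 in the embryo proper, and they were at the lower edge of detection in the seed coat parenchyma, with 2 reads and 1 read. The next 8 suspensor-high members by difference ranged from 21.6 to 928 CPM in the embryo proper, against 3623 to 16791 CPM in the suspensor, with suspensor to embryo proper ratios of 6.83 to 168. Of these 8, 3 had 0 reads in the seed coat parenchyma and 4 were at 1 CPM or more there.

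Some neighbours of these genes by identifier were suspensor-high too, at lower levels. Within 5 gene models on each side, Glyma10g41250 had 10 neighbours, of which 5 were members and 3 suspensor-high, at 1.13 to 12.4 CPM in the embryo proper against 15.1 to 65.4 CPM in the suspensor. Of the 10 neighbours of Glyma20g26010, 5 were members and 3 suspensor-high, at 2.43 to 38.3 CPM in the embryo proper against 33.3 to 1883 CPM in the suspensor. None of the member neighbours of either was embryo proper-high. Over all members 16.8% were suspensor-high and 22.7% embryo proper-high, and over all 33367 gene models with reads 16.2% were suspensor-high. With 5 members around each, the counts are too small to tell a cluster from these shares, and this was not tested. How reads with several equally good hits were assigned is not given in the sources used here, so the counts of near-identical neighbours or duplicates are uncertain.

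Even gene models at high levels set a contrast to these. Glyma09g29370, on chromosome 9, had 158146 reads in the embryo proper (13712 CPM) and 94915 in the suspensor (13641 CPM), a ratio of 1.01 (0.997 to 1.01). Glyma08g36390, on chromosome 8, stood at 4538 CPM in the embryo proper against 4993 CPM in the suspensor, a ratio of 0.909 (0.897 to 0.921). They were chosen as the most read gene models whose higher level was at most 25% above the lower, as it was for 2622 members (12.8%). Both were abundant in the seed coat parenchyma too, at 7320 and 2130 CPM. For 5180 members (25.3%) the whole counting interval of the ratio lay within 2-fold.

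Some members were read in 1 region and not at all in the other. Of the 20507 members, 912 had 0 reads in the suspensor, all of them embryo proper-high, with a median of 85 reads (7.37 CPM) in the embryo proper. Conversely, 304 members of the suspensor-high group had 0 reads in the embryo proper, with a median of 82.5 reads in the suspensor (11.9 CPM). These numbers come from libraries of unequal depth and floor. Such members could pass the minimum of 50 reads only through the other library, so their side was set by the rule. The matching shares over all gene models with reads were not counted. The most read of the 912 had 1199 reads in the embryo proper (104 CPM) and was 241-fold higher there with the suspensor set at 3 reads (lower end of the counting interval 196-fold). The most read of the 304 had 771 reads in the suspensor (111 CPM) and was 426-fold higher there with the embryo proper set at 3 reads (lower end 346-fold).

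The seed coat parenchyma library gave a readout that had no part in the choice of members. At 1 CPM or more it held 83.1% of the embryo proper-high members (95% Wilson interval 82.0 to 84.2%), 73.8% of the suspensor-high members (72.3 to 75.2%) and 94.99% of the 12406 members less than 4-fold apart. Genes with 0 reads in the seed coat parenchyma made up 7.22% of the embryo proper-high, 16.7% of the suspensor-high and 2.06% of the other members. The larger the difference between the embryo regions, the fewer of the gene models were detected in the seed coat. On the embryo proper side the detected share was 94.7% at 2 to 4-fold, 87.9% at 4 to 16-fold, 77.6% at 16 to 64-fold and 72.3% at 64-fold or more. On the suspensor side it was 92.4%, 84.9%, 61.5% and 48.2% over the same classes. Since only a count of 0 was set at 3 reads, members with 0 reads in the other embryo region can fall into lower classes than members with 1 read there. The 64-fold classes had similar levels in their own region, with a median of 24.8 CPM for the embryo proper class and 27.2 CPM for the suspensor class. In the seed coat parenchyma their medians were 4.87 CPM for the embryo proper class and 0.904 CPM for the suspensor class.

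**Figure D4:**
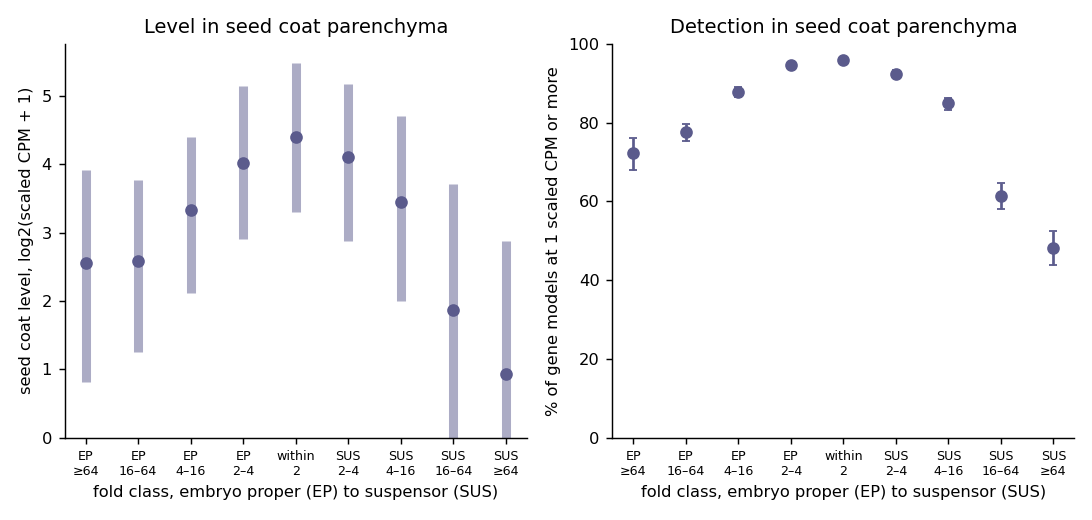
The left panel gives the seed coat parenchyma level of the members of each fold class, as log2(scaled CPM + 1), with points at the median and bars over the quartiles. The right panel gives the percentage of members at 1 scaled CPM or more in the seed coat parenchyma with 95% Wilson intervals, from 72.3% in the outermost embryo proper class over 95.9% within 2-fold to 48.2% in the outermost suspensor class.

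Among members at 10 CPM or more in their own region, detection in the seed coat went up with that level on the embryo proper side. On the suspensor side it first rose and then fell. Members below 10 CPM in their own region were left out here. Of embryo proper-high members at 10 to 30 CPM in the embryo proper 85.2% were at 1 CPM or more in the seed coat parenchyma, at 30 to 100 CPM 90.3%, at 100 to 1000 CPM 93.1%, and at 1000 CPM or more all 15 of 15 (79.6 to 100%). Of suspensor-high members at 10 to 30 CPM in the suspensor the share was 72.3%, at 30 to 100 CPM 80.2%, at 100 to 1000 CPM 74.95%, and at 1000 CPM or more 27 of 44, or 61.4% (46.6 to 74.3%). Of those 44, 11 had 0 reads in the seed coat parenchyma. The seed coat library differed from both embryo libraries in tissue, stage, section thickness and instrument, which cannot be told apart.

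The 4-fold genes were spread over all 20 chromosomes. The embryo proper-high share of members lay between 20.8% on chromosome 6 and 25.4% on chromosome 17, and the suspensor-high share between 13.2% on chromosome 12 and 19.7% on chromosome 3. The Wilson intervals over gene models of the embryo proper-high extremes overlapped, at 18.6 to 23.2% for chromosome 6 and 22.9 to 28.2% for chromosome 17. Those of the suspensor-high extremes did not, at 11.1 to 15.6% for chromosome 12 and 17.3 to 22.3% for chromosome 3. These were picked as the extremes of 20 chromosomes and were not tested. Since gene models are not independent draws, neither the overlap nor its absence tells chromosomes apart. The reads themselves were less even. Chromosome 10 took 4.95% of embryo proper and 8.79% of suspensor reads, but 4.82% and 4.27% without the named gene model. Chromosome 20 took 7.35% of embryo proper and 10.7% of suspensor reads, and 7.31% and 7.99% without its named gene model. Chromosome 6, with no named gene model, took 4.95% of embryo proper and 7.28% of suspensor reads. On chromosome 2 the shares were 8.16% of embryo proper and 4.35% of suspensor reads, and 4.69% and 3.86% without Glyma02g13210.

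**Figure D5:**
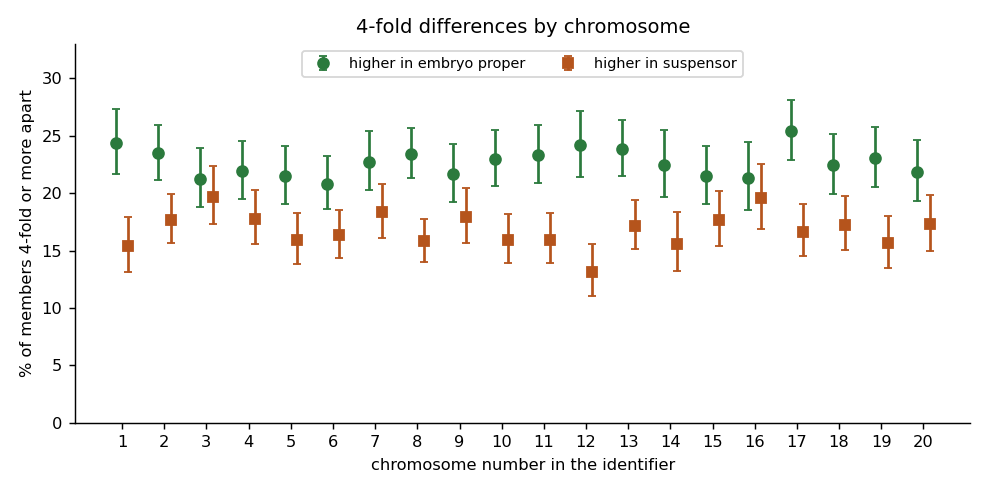
For each chromosome number in the identifiers, circles give the percentage of embryo proper-high members and squares that of suspensor-high members, with 95% Wilson intervals. Circles lie between 20.8% and 25.4% and squares between 13.2% and 19.7%.

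Neighbouring gene models leaned the same way somewhat more often than others. Where an embryo proper-high member was followed by another member in identifier order, that one was embryo proper-high in 474 of 1868 cases (25.4%), against 22.0% after members less than 4-fold apart and 18.5% after suspensor-high members. A suspensor-high member was followed by another one in 264 of 1307 cases (20.2%), against 16.4% after members less than 4-fold apart and 13.4% after embryo proper-high members. Runs were short. In the embryo proper-high group 39 runs of 3 or more adjacent gene models held 123 members, the longest 5, and in the suspensor-high group 21 runs held 65 members, the longest 4. Reads shared between tandem copies, or between overlapping genes if strand was not used, would count towards such runs, and their part was not tested.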

How the data were processed

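The authors deposited 1 table per library with a raw count of mapped reads per gene model, per the file headers. Per the labels' protocols, 3 to 5 ng of total RNA was amplified to cDNA before 15 PCR cycles and single-end reads of 76 nt. The submitters' processing notes name Bowtie. For its version, the genome build, annotation, strand use and handling of multiply mapped reads, no source used here gives an answer.

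TMM factors (edgeR 4.0.16, R 4.3.3, all 3 libraries) were 0.994 (embryo proper), 0.832 (suspensor) and 1.21 (seed coat parenchyma). The comparison used plain ratios of scaled CPM, embryo proper over suspensor, with only a count of 0 set at 3 reads and other low counts left as read. Gene models with 3 or fewer reads in both libraries, none of them members, were given no ratio. Intervals are 95%, exact Clopper-Pearson for ratios and Wilson for shares of reads or of gene models. Reads are not independent molecules and gene models are not independent draws. Named gene models are the 2 per direction with the largest difference in scaled CPM among those 4-fold apart, and the 2 with the highest mean level among those at most 25% apart. Members, groups and rules were chosen with earlier results of these data known. The 17 lists by product name could not be used, since no identifier matched. Steps were tested on simulated data with counting error only and few changed gene models. That could not show how well the scaling or the intervals hold for these libraries. DESeq2 1.42.0 size factors, other scalings, minimums, constants, fold sizes and thinning of the embryo proper to the suspensor total were alternatives. Python 3.11.15, NumPy 2.4.6, pandas 2.3.3, SciPy 1.17.1 and matplotlib 3.10.9 were used.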

Additional observations from a re-analysis of the deposited data

How the results depend on the processing

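No paired analysis was possible because there is 1 library per region. A minimum mean of 10 CPM and an equal CPM minimum in both libraries (that of 50 suspensor reads) were added after seeing the data. Of 188 alternative values, 98 moved by over 1.5 times (counts) or beyond their interval, which for shares of reads is very narrow. Some of the others could not move. TMM over the 2 embryo libraries alone gave the same ratio of factors and so the same values. The Spearman correlation rests on ranks, which scaling and added constants leave unchanged. The median log2 ratio of 0.19 became 0.078 with DESeq2 size factors, 0.26 with upper-quartile factors, 0.45 on unscaled totals and 0.31 on totals without the 50 most abundant, so directions of ratios smaller than these shifts depend on scaling. It was 0.23 at a minimum of 20 reads, 0.30 at 500, 0.073 at 100 over both libraries, 0.039 after thinning, 0.14 with 5 CPM added, -0.084 at a mean of 10 CPM and -0.00088 at an equal CPM minimum. Embryo proper-high and suspensor-high members numbered 914 and 779 of 5323 at 500 reads (17.2% and 14.6%). They numbered 1485 and 1668 with 5 CPM added (7.24% and 8.13%). At a mean of 10 CPM they numbered 1964 and 2298 (14.3% and 16.7%), and at 2-fold 7259 and 5901 (35.4% and 28.8%). Suspensor-high members numbered 5410 with no minimum and 2057 at 8-fold. Members within 2-fold numbered 2197 at 500 reads, or 41.3% of the 5323 against 35.8% as reported. Fewer or more genes were compared under other minimums.

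The share of embryo proper reads in the embryo proper-high group was 20.8% (DESeq2), 22.8% (upper quartile), 27.0% (unscaled) and 23.7% (without the 50 most abundant). It was 22.5% at 20 reads and with no minimum, 21.1% at 100, 16.5% at 500, 21.2% at 100 over both and after thinning, and 21.0% and 17.2% with 1 and 5 CPM added. It was 21.8% without unplaced scaffolds, 19.4% at a mean of 10 CPM, 21.4% at an equal minimum and 18.2% without its 2 most read members. The share of suspensor reads in the suspensor-high group was 36.1%, 34.2%, 32.5% and 33.6% with the same scalings. It was 35.4% at 20 reads, 34.3% at 100, 29.2% at 500, 35.5% with no minimum, 34.4% at 100 over both, 35.3% after thinning, 34.2% and 31.3% with 1 and 5 CPM added, 33.8% at a mean of 10 CPM and 27.8% without its 2 most read members.

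The Spearman correlation was 0.51 at 20 reads, 0.35 at 100, 0.17 at 500, 0.65 with no minimum, 0.37 at 100 over both, 0.40 after thinning, 0.29 at a mean of 10 CPM and 0.39 at an equal minimum. Detection of embryo proper-high members in the seed coat was 85.7% on unscaled totals and without the 50 most abundant, 77.6% at 20 reads, 87.0% at 100, 91.0% at 500 and 76.6% with no minimum. It was 86.9% at 100 over both, 86.8% with 5 CPM added, 90.3% at a mean of 10 CPM, 85.4% at an equal minimum and 59.6% for a level of 5 CPM. For suspensor-high members it was 69.2% at 20 reads, 76.8% at 100, 75.6% at 500, 64.8% with no minimum, 77.1% at 100 over both, 71.2% with 5 CPM added, 78.4% at a mean of 10 CPM and 54.4% for a level of 5 CPM.

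Of embryo proper-high members, 10.2% had a next gene model in the same group. This was 11.3% on unscaled totals, 14.0% at 20 reads, 7.14% at 100, 1.76% at 500, 14.4% with no minimum, 7.12% at 100 over both and 8.44% after thinning. It was 9.01% and 3.52% with 1 and 5 CPM added, 4.29% at a mean of 10 CPM, 7.79% at an equal minimum and 24.6% for the next member. The suspensor-high share of 7.68% became 9.83% at 20 reads, 6.29% at 100, 2.05% at 500, 11.8% with no minimum, 6.28% at 100 over both, 4.20% with 5 CPM added, 5.36% at a mean of 10 CPM and 19.6% for the next member. Unless the construction shows it, the cause was not tested.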
